A study of Mus musculus with 6 samples.

Results

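The CD3 chain genes Cd3g, Cd3d, Cd3e and Cd247 were examined for binding of T-bet in induced regulatory T cells (iTreg cells) of the mouse. Chromatin immunoprecipitation and sequencing (ChIP-seq) peaks were taken by position alone, in the mm9 build. Every peak was included that overlapped a 150 kb window on chromosome 9, set around Cd3g, Cd3d and Cd3e, or a 250 kb window on chromosome 1, set around Cd247. The placement of the genes in these windows was taken as given and was not checked against an mm9 annotation. The windows held 12 of the 8925 peaks in the 3 deposited lists: 0 of the 78 T-bet knockout (KO) peaks, 11 of the 7996 peaks of wild-type (WT) replicate 1 and 1 of the 851 peaks of WT replicate 2. No site was marked in more than one library. In the whole lists 9.50% of replicate 1 peaks overlapped a replicate 2 peak and 0.550% a KO peak. A count of 0 among 11 replicate 1 peaks is near that background. Of all replicate 2 peaks, 85.4% overlapped a replicate 1 peak and 5.41% a KO peak, but the windows held 1.

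One list came from KO iTreg cells and 2 from WT iTreg cells. The strain is given as Balb/c for every library. All the cells, KO included, were sorted as naive CD4+ T cells from mice 4 to 10 weeks old and stimulated on plates coated with anti-CD3 (clone 145-2C11, which binds the CD3 epsilon chain) and anti-CD28, each at 10 µg/ml. They were cultured for 7 days with 33 ng/ml TGF-β1 and 20 ng/ml IL-2 before precipitation with the same rabbit serum against T-bet. The KO library serves as the background of that serum. A peak list holds no measure by which the cell type or the KO genotype could be checked.

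The CD3 chains carry the signal of the T-cell receptor, whose own antigen-binding chains have almost no intracellular part. CD3 epsilon, encoded by Cd3e, pairs with CD3 gamma (Cd3g) and with CD3 delta (Cd3d). CD3 zeta, encoded by Cd247, joins as a pair of its own. The tails of all of them hold tyrosine motifs (ITAMs) that the kinase Lck phosphorylates and that then recruit the kinase ZAP-70. T-bet, encoded by Tbx21, is a T-box transcription factor that binds DNA at half-sites of the form TCACACCT and directs T helper 1 differentiation. In regulatory T cells it is known to accompany their control of T helper 1 responses. The series asked where it binds in these cells.

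The sequences under the peaks are not shown, because no mm9 genome was used here. The RefSeq promoters of the 4 genes (build GRCm38.p6, 250 bases before to 50 after the start) were searched on both strands for the half-site and for its 3 overlapping words of 6 letters, TCACAC and CACACC and also ACACCT. None of the 4 promoters held the full half-site, which occurred in 1.28% of the 32851 promoters of the table, nor TCACAC, which occurred in 14.5%. CACACC was in 1 of the 4 promoters and in 19.0% of the table. ACACCT was in 3 of the 4 and in 13.7% of the table. The promoters with a word are shown 5′ to 3′ on the strand of the gene, with each word in capitals, so that its place can be seen. They lie at chr9:44980382-44980681 (Cd3g, minus strand), chr9:44981536-44981835 (Cd3d, plus strand) and chr9:45009562-45009861 (Cd3e, minus strand) in GRCm38.p6.
Cd3g: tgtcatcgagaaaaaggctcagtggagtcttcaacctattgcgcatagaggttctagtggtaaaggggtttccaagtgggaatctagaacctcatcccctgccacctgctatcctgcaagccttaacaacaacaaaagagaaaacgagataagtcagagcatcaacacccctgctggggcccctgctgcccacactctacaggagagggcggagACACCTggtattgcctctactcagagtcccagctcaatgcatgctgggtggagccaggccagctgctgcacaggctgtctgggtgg
Cd3d: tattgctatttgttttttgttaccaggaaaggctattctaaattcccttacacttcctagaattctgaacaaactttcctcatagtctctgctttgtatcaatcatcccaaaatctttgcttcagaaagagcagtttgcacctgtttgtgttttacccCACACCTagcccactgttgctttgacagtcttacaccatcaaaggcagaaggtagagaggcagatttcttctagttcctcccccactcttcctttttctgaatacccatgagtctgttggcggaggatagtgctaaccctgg
Cd3e: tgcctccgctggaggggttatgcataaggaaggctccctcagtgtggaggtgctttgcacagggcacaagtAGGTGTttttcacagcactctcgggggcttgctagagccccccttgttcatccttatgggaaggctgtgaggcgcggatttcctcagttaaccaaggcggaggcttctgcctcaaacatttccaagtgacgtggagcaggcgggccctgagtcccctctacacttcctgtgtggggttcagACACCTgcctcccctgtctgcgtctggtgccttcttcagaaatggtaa

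In Cd3d the words CACACC and ACACCT overlapped, at positions -92 to -86 relative to the start. In Cd3g, ACACCT lay at positions -36 to -31. Cd3e held it in the reverse orientation at positions -179 to -174 and in the forward orientation at positions 3 to 8, counting the first transcribed base as 1. The Cd247 promoter held none of the words. A word match describes these letters only. The promoter positions belong to another build than the peaks and were not set against them, so which peak lies at which promoter was not determined.

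With 1 KO and 2 WT libraries and no read counts, no test of KO against WT could be made. The peak caller's score, deposited by the authors with each peak, ranks peaks only within its own list.

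**Figure D1:**
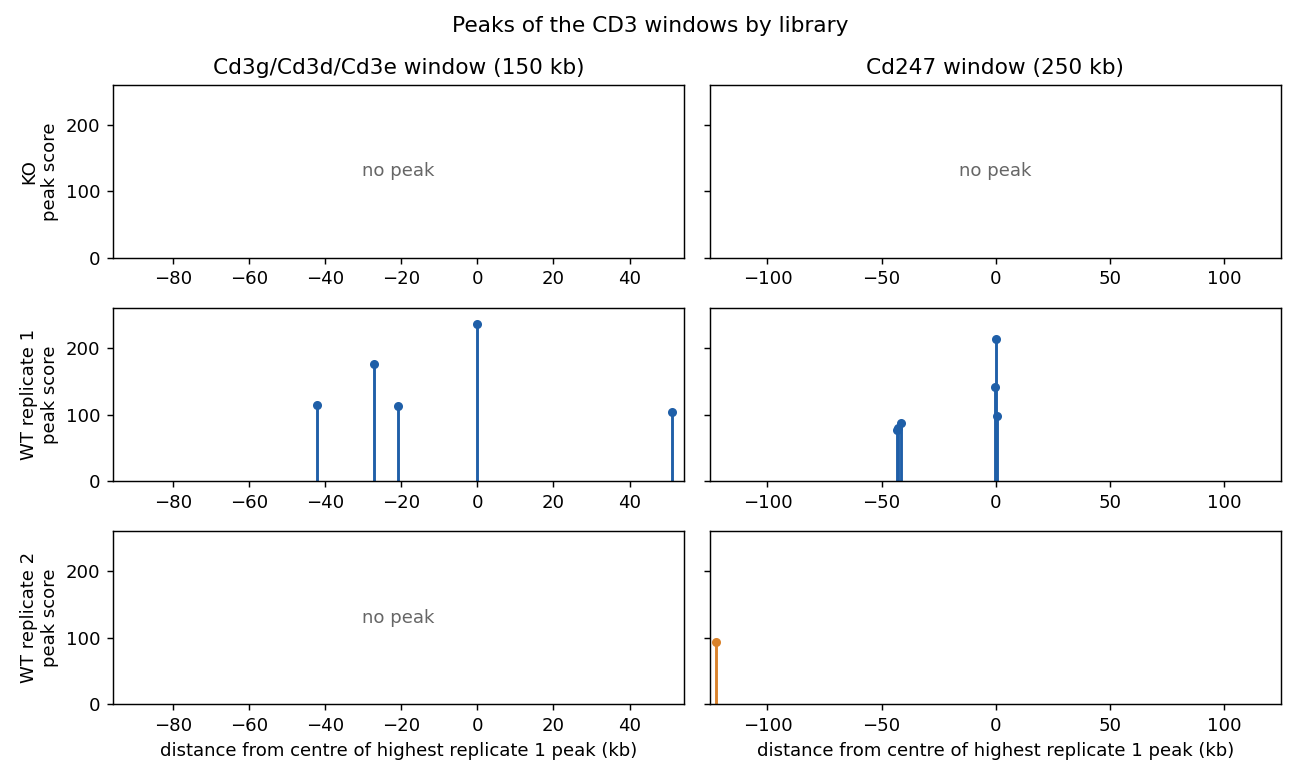
Peaks of the Cd3g/Cd3d/Cd3e window (left) and the Cd247 window (right) in the KO, WT replicate 1 and WT replicate 2 lists. Each stem is a peak, placed by its distance in kb from the centre of the highest replicate 1 peak of that window, and its height is the peak score. The KO panels are empty, replicate 1 has 5 and 6 peaks, and replicate 2 has 1 peak near the left edge of the Cd247 window.

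The Cd3g/Cd3d/Cd3e window held 0 KO peaks, 5 replicate 1 peaks and 0 replicate 2 peaks. The highest had a score of 236.40 in replicate 1 and extended over bases 44815579 to 44815824 of chromosome 9. It ranked 984th of the 7996 peaks of that list, so 12.3% of the list scored higher. The peak from 44788450 to 44788730 followed with a score of 175.66, below 22.4% of the list. These were also the widest peaks of the window, at 246 and 281 bp, against a median of 175 bp over the replicate 1 list.

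The other 3 peaks of this window lay near the middle of the list. The peak from 44773600 to 44773769 scored 114.65, that from 44794717 to 44794892 scored 113.05, and that from 44866869 to 44867062 scored 104.45. The median score of all replicate 1 peaks was 107.66. The first replicate 1 peak outside the window lay 21.3 kb beyond its edge, from 44891335 to 44891578, with a score of 191.14. The peaks of this window stood apart from one another, with gaps of 5986 to 51044 bp between neighbours. In RefSeq's GRCm38 annotation the 3 genes are neighbours in the order Cd3g, Cd3d and Cd3e, between Ube4a, which encodes a ubiquitin ligase, and Mpzl2, which encodes an adhesion protein. The window is long enough to reach beyond the CD3 genes, and assigning each peak to a gene would need an mm9 annotation.

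The Cd247 window held 0 KO peaks, 6 replicate 1 peaks and 1 replicate 2 peak. The 6 replicate 1 peaks formed 2 runs of 3 peaks, 40.9 kb apart. The first run spanned 1861 bp on chromosome 1 from 167731959 to 167733819. Its peaks scored 77.10 (167731959 to 167732108), 80.10 (167732425 to 167732561) and 87.77 (167733653 to 167733819). They were weak for this list, of which at least 70.2% scored above each of them. All 3 were narrower than the list's median, at 150, 137 and 167 bp.

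The second run spanned 1054 bp from 167774680 to 167775733 and was stronger. Its central peak, from 167775135 to 167775404, scored 213.62 and was exceeded by 15.4% of the list. The peak before it, from 167774680 to 167774856, scored 141.09, and the peak after it, from 167775550 to 167775733, scored 97.58. All 3 were wider than the list's median, at 177, 270 and 184 bp. Gaps inside this run were 278 and 145 bp, against 316 and 1091 bp in the first. A run was taken as 3 or more peaks with at most 1500 bp between neighbours, a limit set after the positions had been seen. Runs so defined held all 6 replicate 1 peaks of the Cd247 window and 4.14% of the replicate 1 list. Neither Cd247 run was met by a replicate 2 peak. Of the 101 runs in the list, 31, or 30.7%, were met. At that share 0.614 of the 2 Cd247 runs would be met, so a count of 0 is near the background. In the GRCm38 annotation Cd247 stands between Creg1 and Pou2f1, which encodes the transcription factor Oct-1.

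The replicate 2 peak of the Cd247 window lay on chromosome 1 from 167652644 to 167652923. Its replicate 2 score of 92.88 ranked 531st of 851 peaks, and its width of 280 bp was below that list's median of 353 bp. It overlapped no replicate 1 peak. Of all replicate 2 peaks, 85.4% overlapped one by at least 1 bp. That share was not broken down by score, so nothing is read from this 1 peak. The nearest replicate 1 peak was 14.4 kb away, outside the window, from 167638068 to 167638227 with a score of 89.77. The nearest replicate 2 peak to the Cd3g/Cd3d/Cd3e window was 147 kb beyond its edge.

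Among the 11 replicate 1 peaks of the windows, 6 scored above the median of the list, and the highest decile of scores, which began at 262.61, held none. None of the 11 was met by a replicate 2 peak, against 9.50% of all replicate 1 peaks. Recurrence was highest among the high scores: it was 1.79% in the lowest decile, 16.5% in the ninth and 47.1% in the highest. Over the replicate 1 peaks with scores between 77.10 and 236.40, the range of the window peaks, 5.09% were met. At the shares of their own deciles, 0.710 of the 11 peaks would be met, so a count of 0 is near the background and nothing is read from it.

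**Figure D2:**
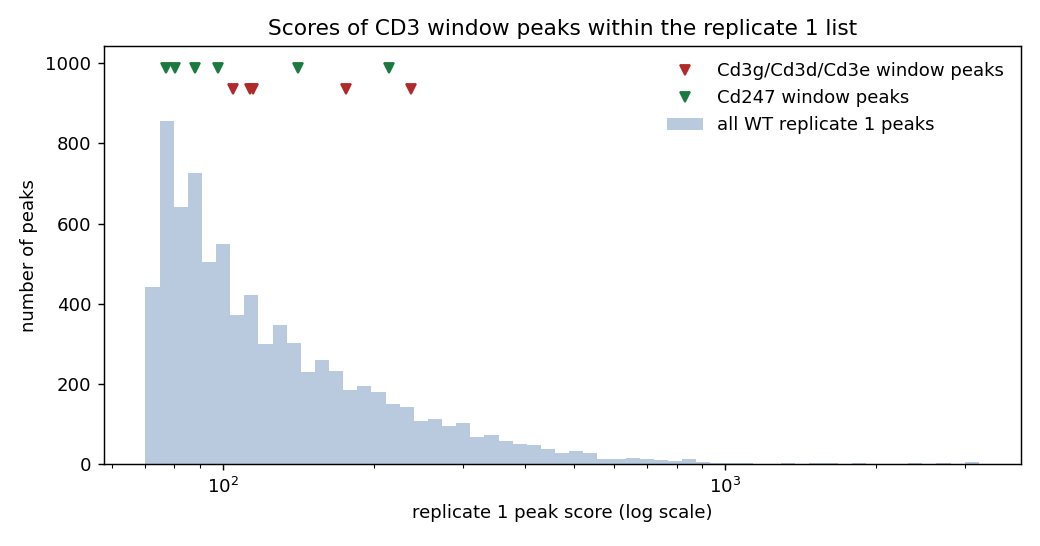
Scores of the CD3 window peaks (triangles, one row for each window) above the distribution of all 7996 WT replicate 1 peak scores (bars, number of peaks, log scale of the score). The triangles range from 77.10 to 236.40 and do not reach the upper tail of the list.

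**Figure D3:**
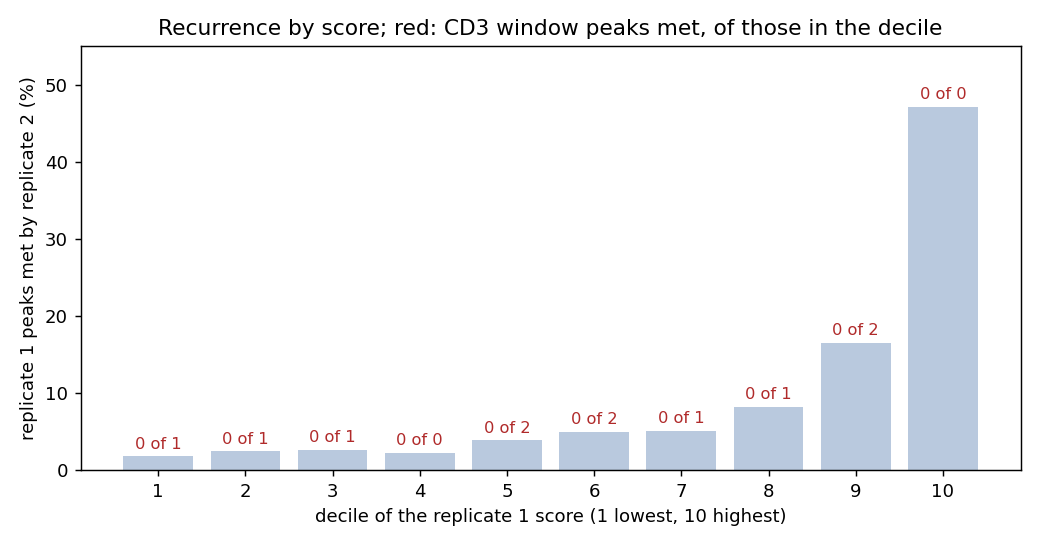
Percentage of WT replicate 1 peaks met by a WT replicate 2 peak (bars) in each decile of the replicate 1 score. Red figures give how many CD3 window peaks of that decile were met, of how many. The window peaks lie in deciles 1 to 9, where recurrence was at most 16.5%, and none was met.

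None of the WT peaks of the windows was met by a KO peak. In the whole lists, 0.550% of replicate 1 peaks and 5.41% of replicate 2 peaks were. The nearest KO peaks were 17.6 Mb from the Cd3g/Cd3d/Cd3e window and 82.6 Mb from the Cd247 window. At the mean density of the KO list, 0.0296 peaks per Mb, windows of this length would hold 0.0118 peaks, so a list of this length would leave most such windows empty.

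The windows were dense in replicate 1 peaks. Together they held 27.5 replicate 1 peaks per Mb (exact Poisson 95% interval 13.7 to 49.2, counting error only), against 3.03 per Mb over the autosomes and X, a ratio of 9.08. The interval takes each peak as independent, which the close runs of the Cd247 window are unlikely to be, so it may be too narrow. The Cd3g/Cd3d/Cd3e window had 33.3 per Mb and the Cd247 window 24.0 per Mb. When the autosomes and X were divided into tiles of the same lengths, 1.75% of 150 kb tiles held at least 5 replicate 1 peaks and 2.47% of 250 kb tiles held at least 6. The density of the Cd247 window rested on closely spaced peaks. With replicate 1 peaks within 500 bp merged, a count per window added after seeing the data, the Cd247 window held 3 peaks, and 8.98% of 250 kb tiles held at least as many. The Cd3g/Cd3d/Cd3e window kept 5, and 1.34% of 150 kb tiles held at least as many. The windows were proposed with results of these data known and are set around genes, unlike the tiles, so the densities are a description. Replicate 2 had 2.50 peaks per Mb in the windows on its 1 peak (0.0633 to 13.9), against 0.322 over the genome, a difference within the counting error.

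Neither CD3 window contained a replicate 1 peak met by replicate 2, which is a shared WT site. Of the 150 kb tiles with exactly 5 replicate 1 peaks, 44 of 117, or 37.6%, contained one, as did 32 of the 80 tiles of 250 kb with exactly 6, or 40.0%. The majority of such tiles, like both CD3 windows, had none. Of the 307 tiles of 150 kb with at least 5 replicate 1 peaks, 155, or 50.5%, contained a shared site. Of the 261 tiles of 250 kb with at least 6, 142, or 54.4%, did; these shares include tiles with many more peaks. The nearest shared site to the Cd3g/Cd3d/Cd3e window was 147 kb beyond its edge, on chromosome 9 from 45016733 to 45016863. The nearest one to the Cd247 window was 1.58 Mb away.

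**Figure D4:**
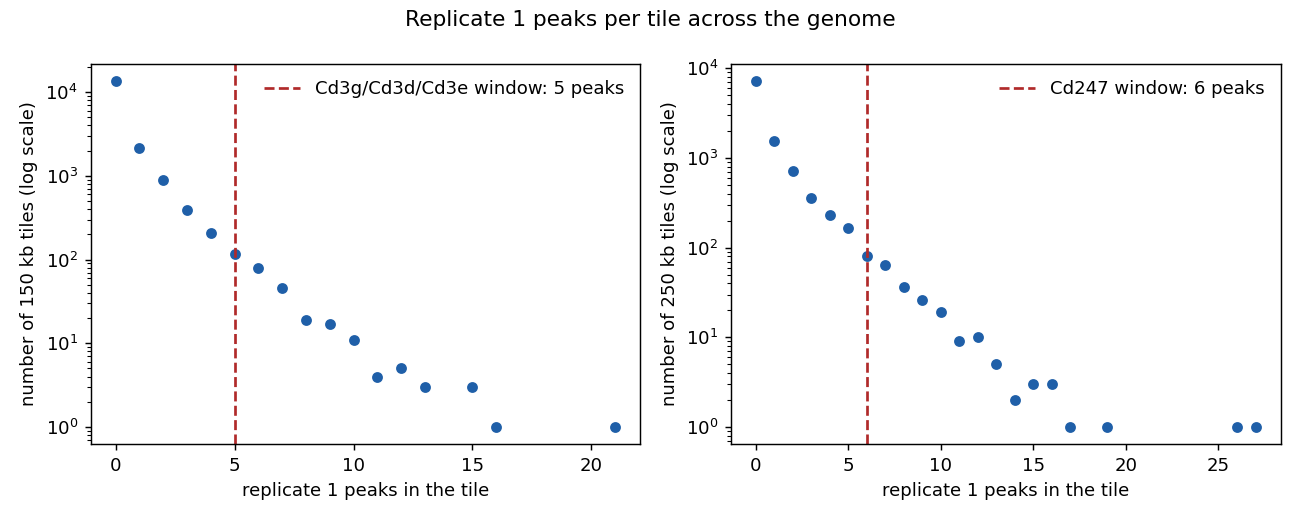
Number of tiles (log scale) by the number of WT replicate 1 peaks they hold, for 150 kb tiles (left) and 250 kb tiles (right) over the autosomes and X. Dashed lines mark the 5 peaks of the Cd3g/Cd3d/Cd3e window and the 6 peaks of the Cd247 window. Tiles with at least as many peaks made up 1.75% and 2.47%.

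Of the 12 window peaks, 11 came from replicate 1, the library with the longest list. The KO and replicate 2 lists share a number at the start of their deposited names that replicate 1 does not, and what it marks is not stated. Between the lists that share it, the windows held 0 KO peaks and 1 WT peak. If it marks a batch, differences between replicate 1 and the other lists cannot be told apart from differences of batch.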

How the data were processed

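ChIP-seq peak lists of 1 KO and 2 WT iTreg libraries were used; the 3 input libraries were not analysed here. Samples were grouped by their titles. The tools were MACS 1.4, Bowtie2 and CASAVA and the build mm9, per the submitters' processing notes. Settings and controls of the peak calls were not given in the sources used here. One list per library was deposited; it gives position, peak name and a score per peak, which the authors took from the peak caller and whose scale is not stated. Read depth is unknown, and the length of a list depends on it. The labels name reads of 35 or 50 bp without saying which library had which. They do not say whether the WT replicates came from separate mice.

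Starts were counted from 1. Overlap of at least 1 bp was counted as meeting. Tiles and densities used the mm9 lengths of the 19 autosomes and X from GenomeInfoDb 1.38.1. Overlap counting was tested on simulated peaks, and runs and merging on a small made-up set. For tiles, the only check was that the summed count was no lower than the number of simulated peaks. Every peak in the windows is named. The members, windows and T-box words were chosen with earlier results of these data known. A planned list of receptor signalling genes and the motif counts under peaks needed mm9 annotation and sequence and were not run. The software was matplotlib 3.10.9, scipy 1.17.1, numpy 2.4.6 and Python 3.11.15.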

Additional observations from a re-analysis of the deposited data

How the results depend on the processing

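Of 30 alternatives to the 6 counts, 27 gave the reported value or stayed within 1.5 times of it. Most of the 27 set a 0 beside a reported 0, which says nothing of stability. These were all the alternatives to the KO count and to the counts of peaks met in another list. The 3 that moved were all among the alternatives to the replicate 1 and replicate 2 peak counts. Requiring a score of at least 100 left 7 of the 11 replicate 1 peaks, 5 of them in the Cd3g/Cd3d/Cd3e window, and 0 replicate 2 peaks. Narrowing the windows by 25 kb on each side also left 0 replicate 2 peaks, since the only one lies near an edge, and widening them by 25 kb gave 13 replicate 1 peaks. Merging peaks within 500 bp left 8 replicate 1 peaks; all the peaks lost were in the Cd247 window, which kept 3 of 6. The counts of peaks met in another list were 0 in all 18 alternatives. Of these, 11 could not have given more than 0 (narrowed windows, a reciprocal overlap of 50%, the higher score threshold or a WT replicate left out), and in 2 of them no replicate 2 peak was left. The other 7 used midpoints within 250 bp, widened windows or KO peaks extended by 1 kb. At the distances between the peaks these could not have exceeded 0 either. The replicate 2 peak nearest to a replicate 1 window peak was 79.0 kb away, and the nearest outside the windows lay 147 kb from an edge. Widening brought in a replicate 1 peak 11.8 kb beyond the Cd247 window, and this lay 14.4 kb from the replicate 2 window peak. KO peaks lay at least 17.6 Mb from the windows. With gaps of at most 1000 bp, an alternative added after seeing the data, 1 of the Cd247 runs remained, and with 2000 bp both did. Counts of 0 cannot show stability when the lists of replicate 2 and KO are short, and unknown depth limits every absence from them. No paired analysis was made, because only peak lists without read counts were used and KO has 1 library. The inputs, of which the WT ones are numbered like the WT ChIP libraries, were not used here.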
